A study of Drosophila melanogaster with 8 samples.

Results

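The 10 genes described here encode parts of the integrated stress response and of serine, asparagine and one-carbon metabolism in Drosophila: Gcn2, PEK, PPP1R15, crc, trbl, AsnS, Nmdmc, aay, CG11899 and Shmt. They were picked by gene symbol, as eIF2 kinases, phosphatase subunit, transcription factor and genes of these pathways, out of 17562 genes in the tables. All 10 were measured and all 10 passed the filter on low counts that left 9903 genes for testing. The measurements are poly-A RNA-seq counts from whole thoraces of adult males, pooled 5 to 6 per sample, in 4 control and 4 REPTOR[ACT] libraries. Both genotypes carried tub-Gal80ts and dMef2-GAL4. In the control they came from a cross to w[1118], and in the REPTOR[ACT] group from a cross to flies with UAS-REPTOR[ACT], a constitutively active form of REPTOR, the bZIP transcription factor that TORC1 signalling keeps inactive. GAL80 blocks GAL4 at 18 °C and fails at 29 °C, so the transgene was silent during development and while collected males were held for 3 to 4 days at 18 °C, and it was on during the 4 days at 29 °C that both groups then spent. The driver acts in muscle, but the whole thorax was profiled. In such bulk samples fewer cells of a type and less RNA per cell cannot be told apart, and a level here is that of muscle, fat body, nerve and trachea together.

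In the integrated stress response, kinases that sense different stresses phosphorylate the alpha subunit of the translation initiation factor eIF2. Gcn2 responds to uncharged tRNA when amino acids are short, and PEK, the fly PERK, to misfolded protein in the endoplasmic reticulum (ER). Phosphorylated eIF2 blocks its own exchange factor eIF2B, so that most translation slows while that of a few mRNAs with upstream open reading frames goes up. The best known of these encodes crc, the fly counterpart of the mammalian transcription factor ATF4. PPP1R15 brings protein phosphatase 1 to eIF2 and reverses the step. Genes under ATF4 control in mammals include those for asparagine synthetase, for the enzymes that make serine from a glycolytic intermediate, and for the mitochondrial enzymes that move the one-carbon unit of serine onto folate. Much of this pathway is set by phosphorylation and translation, which RNA levels do not measure.

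Sequencing depth was 26.8 to 50.0 M reads (M, 1e6) in controls and 29.1 to 42.7 M with REPTOR[ACT], so that 3 reads, the limit a count of 0 allows, correspond to 0.0600 to 0.112 counts per 1e6 reads (CPM). Each of the 10 genes had at least 385 reads in every library. REPTOR was at 92.5 to 131.8 CPM in the controls and at 269.9 to 336.8 CPM in the REPTOR[ACT] libraries, a 2.85-fold difference that includes reads of the transgene. Levels are CPM scaled by the TMM factors of edgeR. A gene "rose" or "fell" where the Benjamini-Hochberg adjusted p of edgeR's quasi-likelihood test, taken over all 9903 genes, was under 0.05. Log2 fold changes are REPTOR[ACT] over control and are given with their standard error (SE). The summed level of 10 muscle markers was 26019 to 28368 CPM in the controls and 33176 to 36396 CPM in the REPTOR[ACT] libraries, and that of 10 fat body markers 4070 to 5586 and 4575 to 6735 CPM. The muscle markers did not move as one: 5 rose, among them Act88F, the flight muscle actin (8.79-fold), 1 fell, Mf (0.298-fold), and 4 were not called. Mitochondrially encoded RNA took 30.4 to 42.2% and 31.6 to 34.1% of reads.

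Of the 10 genes, 6 rose (Gcn2, crc, trbl, AsnS, Nmdmc and CG11899), 0 fell and 4 were not called (PEK, PPP1R15, aay and Shmt). In a fit that took same-numbered libraries as pairs (a replicate block), 4 of the 10 were called, and AsnS and Nmdmc were not. The background is broad: 44.2% of all genes tested were called in either direction, and 24.8% rose. The median log2 fold change of the 10 was 0.64, against −0.0090 over all genes. In 4 of the 10, Gcn2, crc, trbl and Nmdmc, every REPTOR[ACT] library lay above every control, as it did in 23.6% of all genes. With a log2 fold change over 1 required as well, 2 of the 10 rose, trbl and Nmdmc, against 4.83% of all genes.

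**Figure D1:**
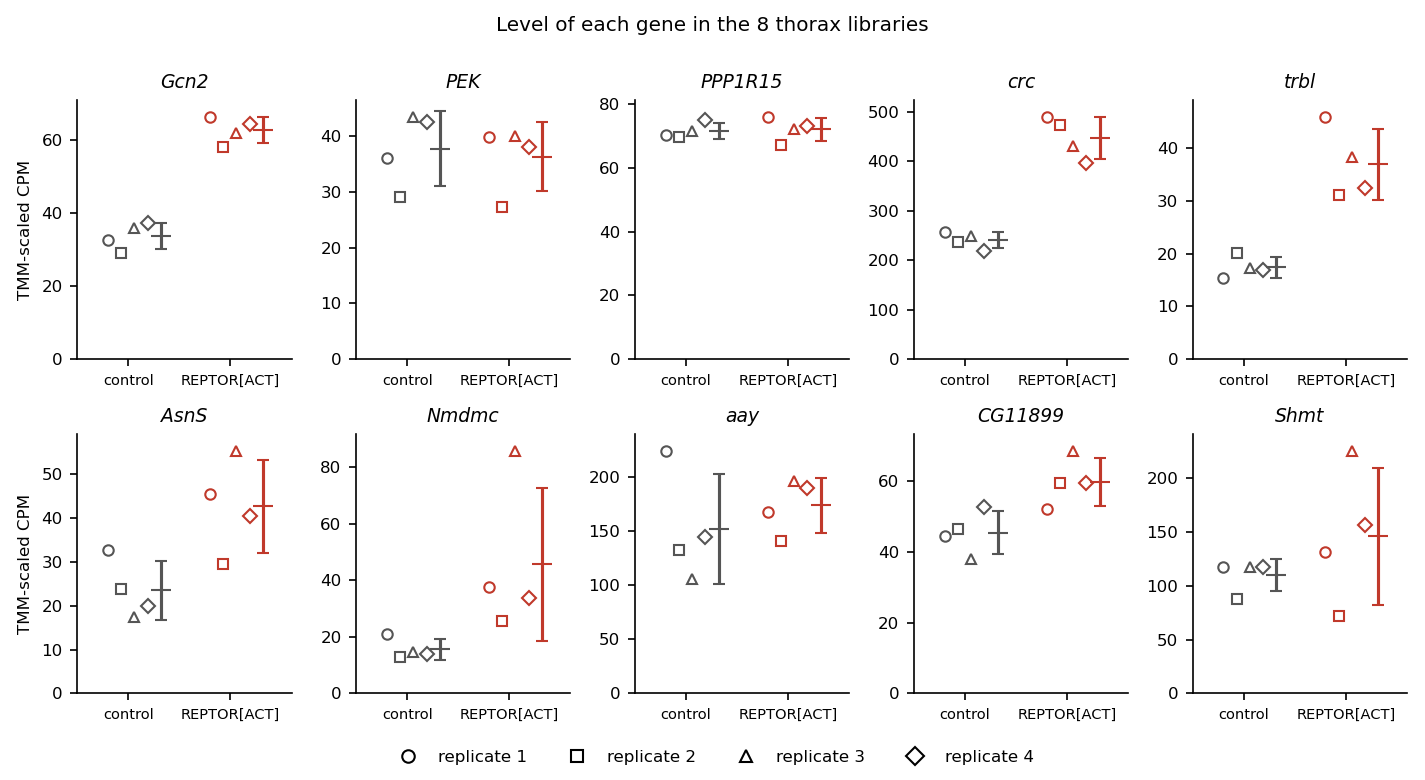
TMM-scaled CPM (vertical axes, each from 0) of the 10 genes in the 4 control (grey) and 4 REPTOR[ACT] (red) libraries; symbols give the replicate number, and the bar to the right of each group its mean and SD. The groups stand apart in Gcn2, crc, trbl and Nmdmc, and lie on top of each other in PEK and PPP1R15.

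Of the 2 eIF2 kinases, Gcn2 rose and PEK did not. Gcn2 (FBgn0019990, chromosome 3R, 31395660 to 31402013 in BDGP6.54, 10 exon blocks) was at 32.8, 29.1, 36.0 and 37.3 CPM in control replicates 1 to 4 and at 66.3, 58.1, 61.9 and 64.4 CPM in REPTOR[ACT] replicates 1 to 4. The lowest REPTOR[ACT] library stood 20.8 CPM above the highest control, and the spread within each group was small beside that gap (coefficient of variation 10.8% and 5.65%). The mean went from 33.8 ± 3.65 to 62.7 ± 3.54 CPM (SD, n = 4), a 1.86-fold increase with a 95% interval of 1.64 to 2.10 (log2 fold change 0.89, SE 0.082, adjusted p = 5.2e-06). Only 6.34% of all tested genes had a larger log2 fold change. An exon stretch of 454 of the 5743 bases of Gcn2 overlaps PNPase on the opposite strand. PNPase itself was at 12.6 CPM in the controls and 11.8 CPM in the REPTOR[ACT] libraries on average.

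PEK (FBgn0037327, 3R, 5458563 to 5464753) was at 36.0, 29.0, 43.4 and 42.5 CPM in the controls and at 39.9, 27.3, 40.1 and 38.0 CPM in the REPTOR[ACT] libraries. The groups covered the same range, and replicate 2 was the lowest library in both. The fold of 0.965 had an interval of 0.754 to 1.24 (log2 fold change −0.052, SE 0.157, adjusted p = 0.82), so a rise of the size seen in Gcn2 lies outside it. Within each library the ratio of Gcn2 to PEK, which does not depend on depth or scaling, was 0.91, 1.0, 0.83 and 0.88 in the controls and 1.7, 2.1, 1.5 and 1.7 in the REPTOR[ACT] libraries. The ratio was thus higher in 4 of 4 REPTOR[ACT] libraries than in any control, by 0.95 on the log2 scale (exact two-sided permutation test, p = 0.0286, the smallest that 70 orderings allow, n = 4). Adjusted over the 5 ratios compared, the exact p was 0.0714 and missed 0.05.

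PPP1R15, on the phosphatase side, was not called. PPP1R15 (FBgn0034948, 2R, 23975599 to 23977255) is the single fly gene for the subunit that targets protein phosphatase 1 to eIF2. It was at 70.4, 69.7, 71.5 and 75.1 CPM in the controls and at 76.0, 67.3, 72.4 and 73.2 CPM in the REPTOR[ACT] libraries. These were the steadiest values among the 10 genes, with a coefficient of variation of 3.38% and 5.05%. The fold of 1.01 had an interval of 0.922 to 1.10 (log2 fold change 0.011, SE 0.058, adjusted p = 0.90), and its sign turned with the scaling, from 0.011 to −0.044 with upper-quartile factors. The ratio of PPP1R15 to PEK was 1.65 to 2.40 in the controls and 1.81 to 2.47 in the REPTOR[ACT] libraries, which overlap almost fully (difference 0.064 on the log2 scale, exact permutation p = 0.60, adjusted over the 5 ratios 0.69).

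The transcription factor crc rose in all REPTOR[ACT] libraries. crc (FBgn0000370, 2L, 21310866 to 21319527) was at 257, 236, 249 and 219 CPM in the controls and at 490, 474, 431 and 396 CPM in the REPTOR[ACT] libraries. The gap between the groups, 139 CPM, was wider than the range within either. Its mean went from 240.5 ± 16.5 to 447.6 ± 42.6 CPM (SD, n = 4), 1.86-fold with an interval of 1.65 to 2.10 (log2 fold change 0.90, SE 0.080, adjusted p = 4.5e-06). The annotation places CG46314 on the same strand over 2515 of the 3423 exon bases of crc, and CG46314 is listed at 0 reads in all 8 libraries, so reads of the shared stretch cannot be told apart by gene and the level of crc is uncertain to that extent.

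trbl (FBgn0028978, 3L, 20396288 to 20401609) encodes Tribbles, a pseudokinase that in flies marks the phosphatase String and other proteins for degradation and that inhibits Akt; its mammalian relative TRIB3 is an ATF4 target. It was at 15.4, 20.2, 17.3 and 16.8 CPM in the controls and at 45.9, 31.0, 38.3 and 32.4 CPM in the REPTOR[ACT] libraries. No library of one group reached the other. The increase was 2.12-fold with an interval of 1.73 to 2.59 (log2 fold change 1.08, SE 0.131, adjusted p = 7.4e-05), from 17.4 ± 2.03 to 36.9 ± 6.75 CPM. Against crc in the same library, trbl was at 0.0598 to 0.0854 in the controls and 0.0655 to 0.0936 in the REPTOR[ACT] libraries. These ranges overlap, and the difference of 0.18 on the log2 scale was not past the threshold (exact permutation p = 0.29, adjusted over the 5 ratios 0.48), so trbl and crc were not told apart in the size of their increase.

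**Figure D2:**
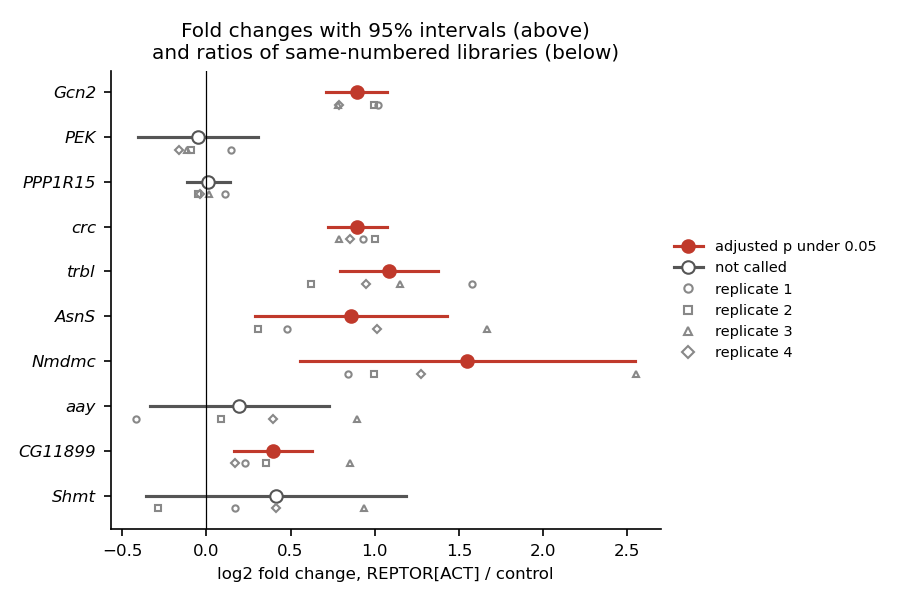
Log2 fold change of each gene (horizontal axis, REPTOR[ACT] over control) with its 95% interval, filled red where the adjusted p was under 0.05; the small symbols below each line are the log2 ratios of same-numbered libraries. Intervals are narrow for Gcn2, crc, trbl, CG11899 and PPP1R15, and wide for Nmdmc, where replicate 3 lies at 2.55 and replicate 1 at 0.84.

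The amino acid and one-carbon enzymes were less even between libraries. AsnS (FBgn0270926, 3L, 21173118 to 21174973, a single exon) encodes asparagine synthetase, which makes asparagine from aspartate with glutamine as nitrogen donor. It was at 32.6, 23.9, 17.4 and 20.04 CPM in the controls and at 45.4, 29.6, 55.2 and 40.4 CPM in the REPTOR[ACT] libraries. The groups overlapped, since REPTOR[ACT] replicate 2 lay below control replicate 1, while the other 3 REPTOR[ACT] libraries lay above every control. AsnS rose 1.81-fold with an interval of 1.22 to 2.696 (log2 fold change 0.86, SE 0.245, adjusted p = 0.024), from 23.5 ± 6.65 to 42.7 ± 10.7 CPM. In the fit with a replicate block its adjusted p was 0.085, and leaving out 1 library gave log2 fold changes of 0.71 to 1.06 with the gene called in 3 of 8 cases, so this call is not firm. With replicates 1 and 2 alone the log2 fold change was 0.42 (adjusted p = 0.35).

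Nmdmc (FBgn0010222, 3R, 9042508 to 9050555) encodes the mitochondrial NAD-dependent methylenetetrahydrofolate dehydrogenase and cyclohydrolase, the counterpart of mammalian MTHFD2. It was at 21.0, 12.8, 14.6 and 14.0 CPM in the controls and at 37.6, 25.6, 85.7 and 33.9 CPM in the REPTOR[ACT] libraries. Each REPTOR[ACT] value exceeded each control value, by as little as 4.52 CPM, and replicate 3 stood far above the other 3. It had the largest log2 fold change of the 10 genes, 1.55 (SE 0.417, adjusted p = 0.022), 2.93-fold with an interval of 1.47 to 5.83, from 15.6 ± 3.69 to 45.7 ± 27.1 CPM. Without REPTOR[ACT] replicate 3 the log2 fold change was 1.06. With the replicate block it was 1.40 and the adjusted p 0.054, and leaving out 1 library kept the call in 5 of 8 cases.

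Shmt (FBgn0029823, X, 5913067 to 5916797) encodes serine hydroxymethyltransferase, which splits serine into glycine and the one-carbon unit that Nmdmc then oxidizes. It was at 117, 87.5, 118 and 117 CPM in the controls and at 132, 71.6, 225 and 156 CPM in the REPTOR[ACT] libraries. REPTOR[ACT] replicate 2 was the lowest of all 8 libraries and the other 3 were above every control. The fold of 1.33 had an interval of 0.779 to 2.27 and was not called (log2 fold change 0.41, SE 0.326, adjusted p = 0.35), but it was without REPTOR[ACT] replicate 2 (log2 fold change 0.65, adjusted p = 0.035). The ratio of Nmdmc to Shmt was 0.180, 0.147, 0.125 and 0.120 in the controls and 0.286, 0.357, 0.381 and 0.217 in the REPTOR[ACT] libraries. Measured in this way, the groups did not overlap, replicate 3 no longer stood apart, and the ratio was 1.11 higher on the log2 scale (exact permutation p = 0.0286, the smallest possible, and 0.0714 adjusted over the 5 ratios). Exons of Shmt overlap the antisense RNA gene asRNA:CR44108 over 110 bases and CG12236 over 13 bases.

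**Figure D3:**
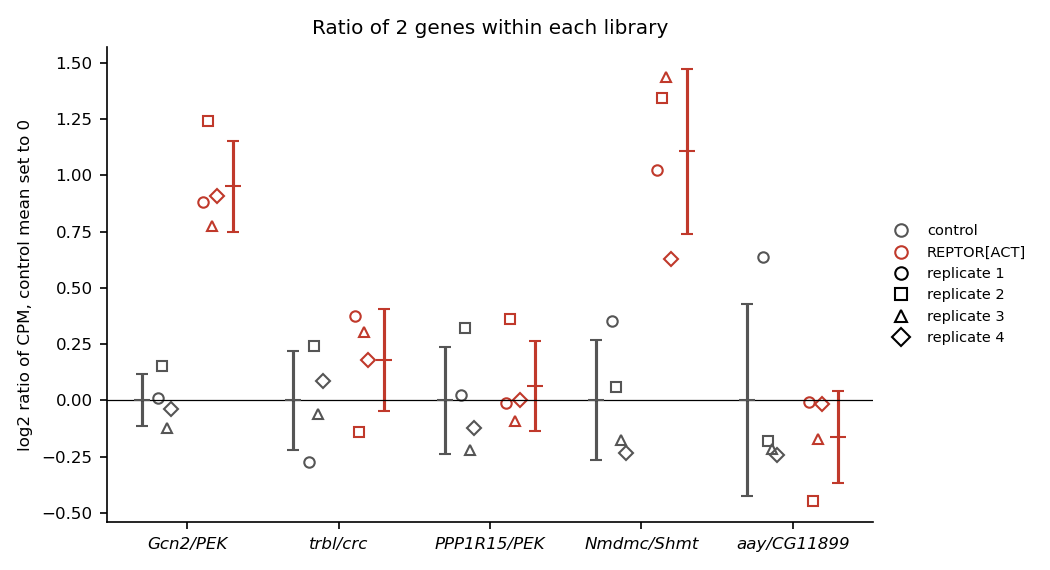
Log2 ratio of 2 genes within each library (vertical axis, mean of the controls set to 0) for the 5 pairs compared, with the mean and SD of each group beside the points. Gcn2/PEK and Nmdmc/Shmt are higher in all 4 REPTOR[ACT] libraries than in any control, and the groups overlap in the other 3 ratios.

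Serine is made from 3-phosphoglycerate in a chain that CG6287, the fly phosphoglycerate dehydrogenase, opens, the aminotransferase CG11899 continues and the phosphatase aay ends. The middle gene was the one called. CG11899 (FBgn0014427, 3R, 29200454 to 29201770) was at 44.3, 46.3, 37.9 and 52.7 CPM in the controls and at 51.9, 59.2, 68.3 and 59.3 CPM in the REPTOR[ACT] libraries. The groups just overlapped, with REPTOR[ACT] replicate 1 below control replicate 4 and the other 3 REPTOR[ACT] libraries above every control. It rose 1.32-fold with an interval of 1.12 to 1.55 (log2 fold change 0.40, SE 0.106, adjusted p = 0.011), from 45.3 ± 6.11 to 59.7 ± 6.72 CPM, and 19.3% of all tested genes had a larger log2 fold change. The call was kept whichever single library was left out, and lost with replicates 3 and 4 alone (log2 fold change 0.48, adjusted p = 0.16).

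aay (FBgn0023129, 3L, 9423253 to 9424781, a single exon) encodes phosphoserine phosphatase. Its level was 224, 133, 106 and 145 CPM in the controls and 167, 141, 197 and 190 CPM in the REPTOR[ACT] libraries. The highest of all 8 values was control replicate 1, and no REPTOR[ACT] library exceeded it. The fold of 1.15 had an interval of 0.792 to 1.66 (log2 fold change 0.20, SE 0.229, adjusted p = 0.52). Without control replicate 1 the log2 fold change was 0.44 and the gene was called (adjusted p = 0.031). That library also had the highest control values of AsnS and Nmdmc and the lowest share of mitochondrially encoded reads of all 8 (30.4%). The part of that share in these values was not tested. The ratio of aay to CG11899 overlapped between the groups (2.75 to 5.06 and 2.38 to 3.23, exact permutation p = 0.69, also after adjustment). CG6287 itself was at 168 to 189 CPM in the controls and 154 to 247 CPM in the REPTOR[ACT] libraries (log2 fold change 0.11, adjusted p = 0.54).

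Compared per length, as CPM per kilobase of exon averaged over the controls, the genes spanned a wide range. aay (99.3 ± 33.2) and crc (70.2 ± 4.81) came first, followed by PPP1R15 (44.9 ± 1.52), Shmt (43.6 ± 5.94) and CG11899 (38.5 ± 5.19). A lower set of AsnS (12.7 ± 3.58), Nmdmc (10.3 ± 2.43), PEK (7.74 ± 1.37), trbl (7.34 ± 0.856) and Gcn2 (5.89 ± 0.635) came after. Neighbours in this order overlapped between libraries except crc and PPP1R15, and CG11899 and AsnS, so the rest of the order is not resolved. In the REPTOR[ACT] libraries crc (131 ± 12.4) had the highest mean level per length of the 10.

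The libraries of the REPTOR[ACT] group were ordered alike in several of these genes. Replicate 3 was the highest and replicate 2 the lowest of the 4 in PEK, AsnS, Nmdmc, aay and Shmt, 5 of the 10 genes, and in 14.7% of all tested genes. Among other serine, glycine and one-carbon genes 10 of 18 had this order. pug, the cytosolic counterpart of the folate enzymes, was at 203, 163, 389 and 251 CPM in REPTOR[ACT] replicates 1 to 4, CG3999, the glycine decarboxylase, at 34.5, 11.7, 53.5 and 25.6 CPM, and Sardh, the sarcosine dehydrogenase, at 33.3, 10.8, 67.9 and 31.4 CPM. None of these was called. Among genes of other amino acids 8 of 11 had the order, whereas among those around eIF2 it was 2 of 16. This order was noticed in the values, so the counts are given as a description, without a test.

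The summed level of the 10 fat body markers had the same highest and lowest library, at 6366, 4575, 6735 and 5750 CPM in REPTOR[ACT] replicates 1 to 4 and 5288, 5586, 4070 and 4674 CPM in the controls. Taken singly, 3 of the 8 fat body markers tested had this order (Lsp2, bmm and Lsp1alpha), and apolpp, the largest part of the sum, was highest in replicate 1. The order was also seen in 2 of 8 hemocyte and 1 of 6 tracheal markers, and in 0 of 10 muscle and 0 of 8 neuronal markers. Of the 8, Ilp6, Lsp1alpha and Lsp1beta rose and takeout (to) fell, while the lipoprotein gene apolpp was not called (log2 fold change 0.16, adjusted p = 0.28). The larval fat body genes Fbp1 and Fbp2 were under 1 CPM in every library. Gcn2, crc and trbl did not have REPTOR[ACT] replicate 3 as the highest library of their group. Like apolpp, Gcn2 and trbl were highest in replicate 1 and lowest in replicate 2. crc was highest in replicate 1 and lowest in replicate 4. The part of the fat body in the levels of the 10 genes was not tested. The 6 tracheal markers summed to 155 to 165 CPM in the controls and 156 to 192 CPM in the REPTOR[ACT] libraries, the 8 neuronal markers to 694 to 816 and 650 to 750 CPM, and the 8 hemocyte markers to 963 to 1050 and 902 to 1059 CPM. All 7 gut markers were under 1 CPM.

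**Figure D4:**
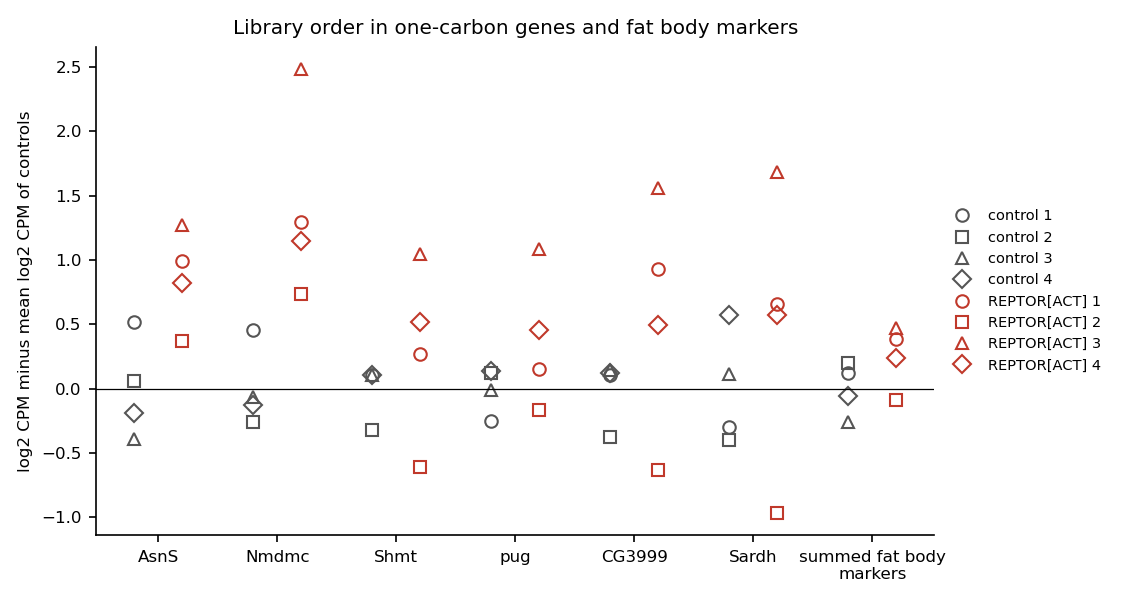
Log2 CPM minus the mean of the controls (vertical axis) for 6 genes and for the sum of 10 fat body markers in each library; symbols give the replicate number, grey the controls and red the REPTOR[ACT] libraries. The genes were picked for this order: in each column the triangle of REPTOR[ACT] replicate 3 is the highest and the square of replicate 2 the lowest red symbol.

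The other genes of these pathways were counted in 4 lists, to be read beside the 24.8% of all tested genes that rose. Around eIF2, 9 of 16 tested genes rose and 1 fell, with a median log2 fold change of 0.32. All 3 subunits of eIF2 rose: eIF2beta the most (48.6, 43.1, 48.8 and 48.1 CPM in the controls and 141, 111, 118 and 109 CPM in the REPTOR[ACT] libraries, log2 fold change 1.35, adjusted p = 3.9e-07), eIF2alpha, the substrate of the kinases, by 0.75 and eIF2gamma by 0.41. Of the subunits of the exchange factor eIF2B, eIF2Balpha (0.87), eIF2Bgamma (0.80), eIF2Bdelta (0.74) and eIF2Bbeta (0.40) rose, and the catalytic eIF2Bepsilon was at 0.20 (adjusted p = 0.065). eIF2D (0.35) and DENR (0.29), which help ribosomes to start again on crc mRNA in flies, rose as well. MCTS1 (0.28, adjusted p = 0.073) and NAT1 (−0.0036, adjusted p = 0.97), in the same list, were not called. The phosphatase 1 gene flw fell by 0.19 on the log2 scale, a call lost when libraries were scaled by their total; Pp1-87B and Pp1alpha-96A, the other catalytic subunits tested, were at 0.054 and 0.11 and were not called. The gene for the Gcn2 activator GCN1, l(3)80Fj, was at 0.057 and not called. Pp1-13C, the member left out by the filter, had at most 0.0669 CPM.

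Of 12 partners, targets and neighbours of crc, 8 rose (24.8% over all tested genes) and 0 fell, with a median of 0.41. Irbp18, a bZIP protein that dimerizes with crc, was at 20.7, 19.3, 21.7 and 21.0 CPM in the controls and at 51.2, 46.6, 44.5 and 45.8 CPM in the REPTOR[ACT] libraries (log2 fold change 1.19, adjusted p = 1.5e-07). Thor, the translation inhibitor 4E-BP and a crc target in flies, was at 122, 272, 112 and 145 CPM in the controls and at 927, 907, 692 and 625 CPM in the REPTOR[ACT] libraries (2.27, adjusted p = 0.0011). The groups were apart in both. Gadd45 (2.30), the ER chaperone Hsc70-3 (1.23), the ER oxidase Ero1L (1.14), REPTOR-BP (0.44), the bZIP partner of REPTOR, Xbp1 (0.39) and CG10365 (0.29) also rose. Of the other sensors of ER stress, Ire1 was at 0.20 (adjusted p = 0.050) and Atf6 at −0.074, neither called. Thor and REPTOR-BP are known from work on TORC1 and REPTOR in flies. The study also reported Thor mRNA raised by REPTOR[ACT] in thoraces, by qRT-PCR. It shortlisted Gadd45 as a candidate target of REPTOR, in part from bulk RNA-seq of REPTOR[ACT] thoraces. The study describes no other bulk dataset of such thoraces, so the rise of Gadd45 here is not separate from that choice. In flies with gut tumours, REPTOR knockdown in muscle did not reverse Gadd45 in the study. This list is therefore not made up of crc targets alone.

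Serine, glycine and one-carbon genes other than the 10 rose in 7 of 18 tested cases, against 24.8% of all tested genes. In this list 0 fell, and the median was 0.50. CG6287 of the serine chain was not among them. Those that rose included Gnmt, glycine N-methyltransferase (24.9, 35.2, 6.9 and 14.2 CPM in the controls and 135, 84.4, 113 and 96.9 CPM in the REPTOR[ACT] libraries, log2 fold change 2.39, adjusted p = 0.0074), Eip55E, cystathionine gamma-lyase (1.36), Sam-S, S-adenosylmethionine synthetase (1.13), Ahcy, adenosylhomocysteinase (1.005), CG10623, a homocysteine methyltransferase (0.96), and CG7560, methylenetetrahydrofolate reductase (0.55). Most of these enzymes handle methionine, its methyl group or its sulfur. Without REPTOR[ACT] replicate 2 the count was 11. Ts, the member left out by the filter, had at most 0.266 CPM.

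Of 11 genes for other amino acids, 2 rose and 3 fell, with a median of 0.13. The glutamine synthetases Gs1 (0.76) and Gs2 (0.50) rose. P5cr-2, for the last step of proline synthesis, fell by 0.73 on the log2 scale, and glutamate dehydrogenase, Gdh, fell by 0.64. Among all 9903 tested genes 2459 rose (24.8%) and 1918 fell, with a median of −0.0090. Rises were thus no more frequent in this last list than over all genes.

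**Figure D5:**
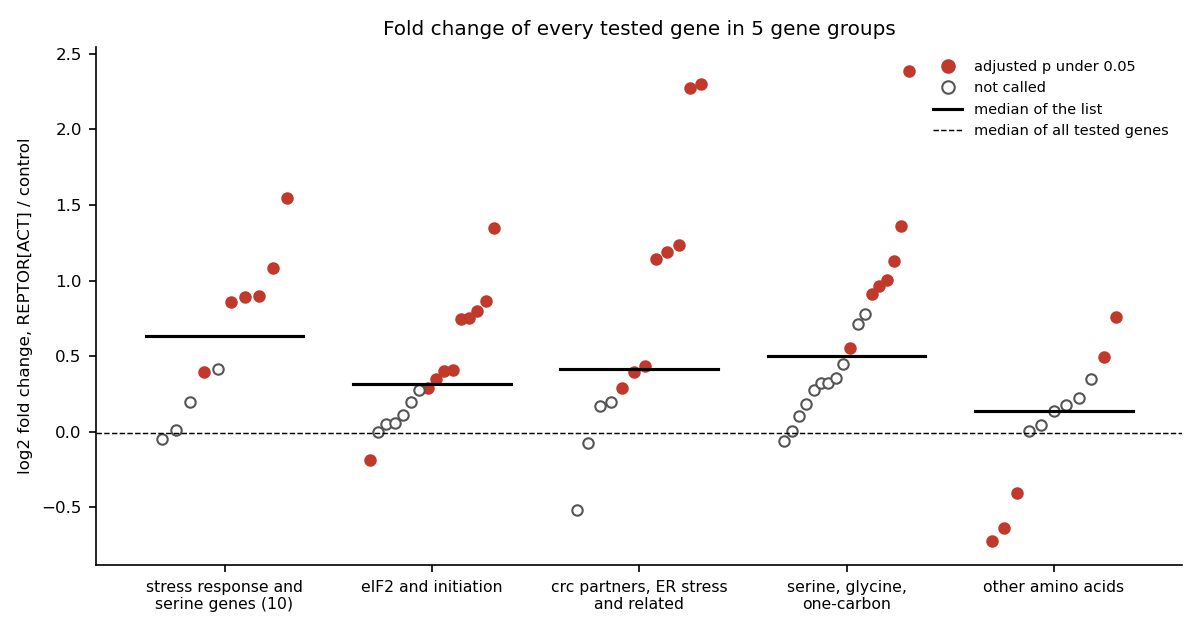
Log2 fold change (vertical axis) of every tested gene among the 10 and in the 4 lists, ordered by size within each column and filled red where the adjusted p was under 0.05; black bars are medians and the dashed line is the median of all tested genes. All 5 medians lie above the dashed line, from 0.13 for other amino acids to 0.64 for the 10 genes.

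The genes whose profile over the 8 libraries was most like that of crc and of trbl were sought among the 6069 other tested genes that averaged 10 CPM or more. Likeness was the root mean square difference in log2 CPM after each gene was centred on its control mean. This measure is set largely by the size of the fold change. The 5 nearest to crc had log2 fold changes of 0.84 to 0.91, beside 0.90 for crc. Those nearest to trbl had 0.99 to 1.14, beside 1.08 for trbl. For crc the nearest were dlp, a glypican (0.058), CG14995 (0.063), Vha13, a subunit of the vacuolar proton pump (0.066), Aatf (0.074) and CG5316 (0.075). Of the 10 genes, Gcn2 was nearest to crc (0.17, rank 190), ahead of trbl (0.23, rank 394). For trbl the nearest were NHP2 (0.12), RpLP0-like (0.13), CG1785 (0.13), Aldh, an aldehyde dehydrogenase (0.13), and Nnp-1 (0.13). NHP2, RpLP0-like and Nnp-1 are known for roles in the nucleolus and in ribosome assembly. Whether they share regulation with trbl was not tested.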

How the data were processed

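Thoraces of 4 control and 4 REPTOR[ACT] samples were profiled by poly-A RNA-seq. Per the study's methods the authors used the KAPA mRNA HyperPrep workflow, 4 sequencing pools for technical replication and single reads on a NextSeq instrument, aligned reads with STAR to a FlyBase release and tested genes with DESeq2. The labels differ: they give a TruSeq kit, a HiSeq2000 and mm10, a mouse build that fly reads cannot have been aligned to. The tool, strand setting and treatment of shared reads in counting: not given in the sources used here. As deposited, the values are expected counts per gene, not scaled for depth. All were multiples of 0.25 (within 1e-06), as a mean over 4 pools would be, an origin inferred from the values. Multiplied by 4 they were whole in 100% of cases and were used as reads. Symbols not in the tables were looked up by locus tag (3 of 108), and coordinates and exon overlaps come from the Ensembl annotation of BDGP6.54.

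Groups came from the labels, which do not say whether replicates were separate crosses, so p-values measure the spread between these samples. Low counts were removed with filterByExpr (minimum count 10, minimum total 15) and libraries scaled with TMM factors and tested with edgeR 4.0.16 (robust quasi-likelihood, common biological coefficient of variation 0.120, R 4.3.3) without covariates, with Benjamini-Hochberg adjustment over 9903 genes and a threshold of 0.05. Standard errors and 95% intervals were derived from the F statistic. Ratios were tested by exact permutation. The test was checked on simulated counts. The 10 genes, the lists and the tests were chosen with earlier results of these data known. Named genes were the 10, the called or pathway-ordering members of each list, the 5 genes most like crc and trbl, and REPTOR. Some list members are counted but not reported here by name. A planned search for promoter motifs was not run, because no promoter sequence was used here.

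Alternatives were DESeq2 1.42.0 with its size factors, total-count and upper-quartile scaling, limma-voom (limma 3.58.1), no filter, rounded deposited values, no mitochondrial genes, a replicate block and each library left out. Replicates 1 and 2 alone and 3 and 4 alone were added after seeing the data. Same-numbered libraries deviated together (correlations of deviations from the group means 0.138, 0.433, 0.220 and 0.137, all over 0.1), which met the limit set for taking the numbers as pairs, although for replicates 3 and 4 the highest correlation with another number was as large or larger (0.221). The main fit has no block, and pairing enters only as an alternative. The labels do not say what a number shares. The second principal component (11.2% of variance) put replicates 1 and 2 apart from 3 and 4. Intervals for counts of 0 cover counting error only. Figures were drawn with matplotlib 3.10.9.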

Additional observations from a re-analysis of the deposited data

Results flagged for a closer look

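Values of each of the 10 genes were examined for single libraries far from the other 3 of their group, by the gap to the nearest value over the whole range (Dixon's test, 95% level). Of 20 groups of 4 examined, 2 were past it, where chance gives about 1 in 20. PEK was at 27.3 CPM in REPTOR[ACT] replicate 2, and at 38.0 to 40.1 CPM in the other 3 libraries of that group. Shmt was at 87.5 CPM in control replicate 2, and at 117 to 118 CPM in the other 3 controls. REPTOR[ACT] replicate 3 of Nmdmc (85.7 CPM, gap over range 0.799) came close to the critical value without passing it.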

How the results depend on the processing

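Gcn2, crc and trbl rose under every alternative run. Other calls were less stable, and the cause was not tested. AsnS kept its size and lost its call with total library size (log2 fold change 0.86, adjusted p = 0.076), without the filter (0.86, 0.055) and with the replicate block (0.85, 0.085), and lost it at 0.42 with replicates 1 and 2 alone. Nmdmc lost its call with the block (1.40, adjusted p = 0.054), with replicates 1 and 2 alone (0.91) and with 3 and 4 alone (2.04). CG11899 lost it with replicates 3 and 4 alone (0.48). The block changed no other call among the 10 genes, and with it 11 genes of the eIF2 list and 10 of the crc list rose. Values near 0 turned their sign: PPP1R15 to −0.00083 with DESeq2, −0.044 with upper-quartile scaling and −0.0085 without mitochondrial genes. PPP1R15 was also at −0.026 with replicates 3 and 4 alone, and PEK at 0.055 with replicates 1 and 2 alone. Larger values changed too with replicates 1 and 2 alone: aay went from 0.20 to −0.20 and Shmt from 0.41 to −0.0026. The fall of flw was lost, leaving 0 genes of the eIF2 list that fell, with total library size and with replicates 1 and 2 alone.

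With each library left out in turn, 4 to 7 of the 10 genes were called. Log2 fold changes ranged from 0.71 to 1.06 for AsnS, from 1.06 to 1.76 for Nmdmc, from 0.067 to 0.44 for aay, from 0.13 to 0.65 for Shmt, from −0.15 to 0.076 for PEK and from −0.014 to 0.056 for PPP1R15. AsnS was called only when control replicate 1 or one of REPTOR[ACT] replicates 2 and 4 was the library left out, and Nmdmc lost its call without control replicate 2, 3 or 4. Genes that rose numbered 7 to 11 in the serine and one-carbon list, and 0 to 1 fell in the eIF2 list (0 without REPTOR[ACT] replicate 4). The ratio aay/CG11899 differed by −0.24 to 0.052 and PPP1R15/PEK by −0.034 to 0.17 on the log2 scale. Paired by replicate number, no ratio could go below an exact p of 0.125 by sign flips, reached by Gcn2/PEK and Nmdmc/Shmt (both higher in 4 of 4 pairs).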
